A study of Saccharomyces cerevisiae with 4 samples.

Results

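Small RNAs mapping to 42 nuclear genes for proteins of the yeast mitochondrial ribosome are described here across 4 libraries of budding yeast (Saccharomyces cerevisiae). The genes were taken by name: 34 genes named MRPL, for the large subunit, and 8 named MRPS, for the small subunit, of 5798 genes in the deposited table. The rule goes by name and uses no measured value, though it was written with earlier results of these data known. Genes of the same ribosome with other names, such as the MRP and RSM genes, are given further on as a separate list.

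The libraries hold RNA of 10 to 40 nucleotides, and each genotype has 1 library. Strain YAM1982 lacks the exonuclease gene XRN1 and carries DCR1 and AGO1 (xrn1-delta DCR1 AGO1). Strain YAM2271 lacks XRN1 alone (xrn1-delta). Strain YAM1725 carries DCR1 and AGO1 (DCR1 AGO1), and strain YAM1730 is labelled wild type. Budding yeast has no RNA interference of its own. DCR1 encodes a Dicer, an enzyme that dices double-stranded RNA, and AGO1 an Argonaute, the protein that the resulting small RNAs guide. By its title the study used this rebuilt pathway to map double-stranded RNA. The sources used here do not give the species the added genes came from, their promoters, the growth conditions or the number of clones.

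The libraries held 7686801 reads over the listed genes in xrn1-delta DCR1 AGO1, 2825322 in xrn1-delta, 1801407 in DCR1 AGO1 and 627607 in wild type. Values below are on the deposited scale, which is a number of reads multiplied by 1 factor per library and not divided by gene length. On it, 1 read was worth 0.0762 in xrn1-delta DCR1 AGO1, 0.330 in xrn1-delta, 0.318 in DCR1 AGO1 and 1 in wild type. XRN1 itself checked the deletion labels: it had 0 reads in xrn1-delta DCR1 AGO1 and 3 in xrn1-delta, against 39 in DCR1 AGO1 and 148 in wild type. Genes of the mitochondrial genome took 0.0394% and 0.361% of the reads in xrn1-delta DCR1 AGO1 and DCR1 AGO1, but 33.1% and 26.7% in xrn1-delta and wild type. Each genotype has a single library, so a difference between 2 libraries has no replicate check and was not tested. A model over all 4 libraries is given as an alternative. The intervals are 95% intervals for counting error alone.

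Mitochondria keep a ribosome of their own, which makes the few proteins encoded by the mitochondrial genome, most of them core subunits of the respiratory chain and of the ATP synthase. Almost all of its proteins are encoded in the nucleus, translated in the cytosol and imported. In budding yeast the messenger RNAs of many of these genes are bound by Puf3, a Pumilio-family protein that binds a short motif after the stop codon and is known for control of their stability and of their place near mitochondria. XRN1 encodes the main cytoplasmic nuclease that degrades decapped RNA from its 5′ end.

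The 42 genes shared a feature that their selection did not use. The Puf3 motif TGTANATA, where N is any base, was searched in the 200 bases after the stop codon. It was present on the gene's strand in 42 of 42 genes, against 839 of 5770 nuclear genes (14.5%) and 797 of the 5728 nuclear genes outside the group (13.9%). The same letters on the opposite strand were found in 8 of 42 genes (19%), against 13.3% of nuclear genes. In the 200 bases before the start codon they were found in 1 of 42 (2.38%), against 5.08%. A match is a match of letters in the R64 reference genome and not a measured binding site. The sites of 9 genes are printed because these genes mark the ends of the small RNA comparisons below. MRPL3 also has a second match, of the form TGTACATA, which begins 53 bases after the stop codon and is not printed. Each printed site is 1 match with 10 bases on either side, 5′ to 3′ on the strand of the gene, with the motif in capitals (RefSeq, assembly R64).
MRPL22, YNL177C (chrXIV:303533-303560, minus strand): attgtgattcTGTAAATAacaactagtt
MRPL9, YGR220C (chrVII:936024-936051, minus strand): actacaatcaTGTACATAcatcaataat
MRPL3, YMR024W (chrXIII:323055-323082, plus strand): tttgccatttTGTAGATAgagaactcct
MRPL11, YDL202W (chrIV:99268-99295, plus strand): tattcaatcaTGTACATAcatcatcaaa
MRPS35, YGR165W (chrVII:830213-830240, plus strand): cattattactTGTACATAaaatattcta
MRPL51, YPR100W (chrXVI:730251-730278, plus strand): taattatactTGTATATAtaatttgggg
MRPL38, YKL170W (chrXI:131136-131163, plus strand): attaaccaccTGTATATAttgcttaaat
MRPL6, YHR147C (chrVIII:392536-392563, minus strand): gggaatacctTGTAAATAtcctatgaaa
MRPL44, YMR225C (chrXIII:720855-720882, minus strand): caagcaagccTGTAAATAatatatatgc

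There were 52 matches in all, 1 in each of 32 genes and 2 in each of 10 genes. The first match began between 8 and 139 bases after the stop codon, at a median of 54.5, and within 100 bases in 38 of the 42. The form TGTAAATA occurred in 23 of the genes, TGTATATA in 14 and TGTACATA in 12, against 4.42%, 7.44% and 2.58% of nuclear genes. TGTAGATA, in MRPL3, was found in 1. A C stood 2 bases before the first match in 30 of 42 genes (71.4%), against 26.9% of the first matches in other nuclear genes, while C made up 16.4% of the bases in all windows. Such a C is a known preference of Puf3. Genes with the motif were not all alike in their small RNAs: the sites of MRPL22 and MRPL6 have the same 8 letters, yet MRPL22 had the lowest log2 difference of the group in DCR1 AGO1 over wild type (value plus 3.18) while MRPL6 stayed within 2-fold.

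**Figure D1:**
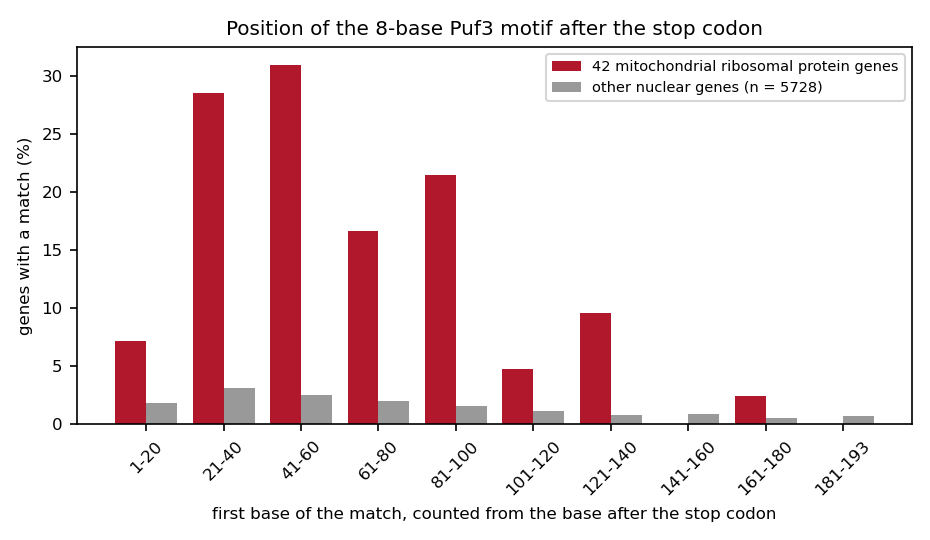
Share of genes with a TGTANATA match beginning in each stretch of bases after the stop codon (horizontal axis, distance in bases), in percent, for the 42 mitochondrial ribosomal protein genes and for the other nuclear genes. The shares of the 42 genes are highest between 21 and 100 bases, with 28.6% at 21 to 40 and 31.0% at 41 to 60, where 3.11% and 2.53% of the other genes have one.

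The 42 genes held 11972 reads in xrn1-delta DCR1 AGO1 (0.156% of reads over listed genes), 9174 in xrn1-delta (0.325%), 1044 in DCR1 AGO1 (0.0580%) and 2423 in wild type (0.386%). Of the reads over nuclear genes alone the group took 0.156% in xrn1-delta DCR1 AGO1, 0.489% in xrn1-delta, 0.0582% in DCR1 AGO1 and 0.539% in wild type. Per gene, the median value was 6.36 in xrn1-delta DCR1 AGO1 (range 0.534 to 175), 66.6 in xrn1-delta (18.2 to 180), 2.70 in DCR1 AGO1 (0 to 80.0) and 37 in wild type (4 to 209). Over all nuclear genes the median was 19.2 in xrn1-delta DCR1 AGO1, 70.7 in xrn1-delta, 11.1 in DCR1 AGO1 and 48 in wild type. These values are not divided by length, and the direction of this comparison depends on that. Per kb of coding length, the group's median was 9.81 in xrn1-delta DCR1 AGO1 and 4.18 in DCR1 AGO1, below the nuclear medians of 15.3 and 9.31. It was 103 in xrn1-delta and 55.5 in wild type, above the nuclear medians of 53.9 and 37.5.

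**Figure D2:**
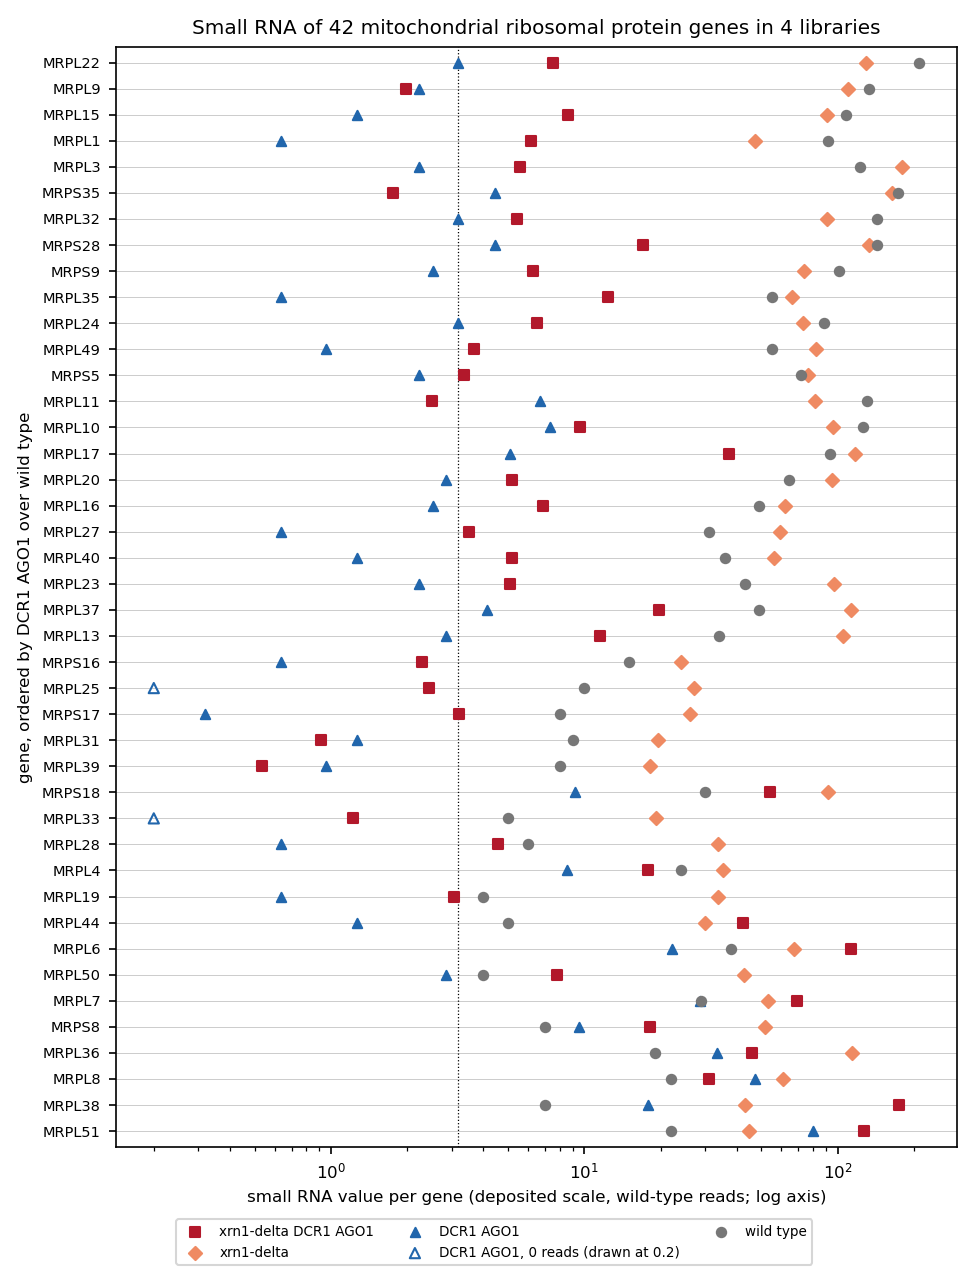
Deposited value (horizontal log axis, reads times 1 factor per library) of each of the 42 genes, down the page from the lowest to the highest difference in DCR1 AGO1 over wild type, with 1 point per library, open symbols for 0 reads and the dotted line at 3.18. Most genes lie below 10 in the libraries with DCR1 AGO1 and above 20 in xrn1-delta, while MRPL38, MRPL51 and MRPL6 reach 175, 128 and 113 in xrn1-delta DCR1 AGO1.

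In DCR1 AGO1 over wild type, most of the genes gave fewer small RNAs. A gene was counted where 1 of the 2 libraries reached 3.18, which was also the pseudocount added before taking log2, and called where the log2 difference reached 1 in either direction. All 42 were counted, and 32 were lower, 2 higher and 8 within 2-fold. Among all nuclear genes counted, 60.1% were lower and 15.3% higher. The median log2 difference of the 42 was -2.97, from -5.06 to 1.72, against -1.56 over all nuclear genes. Of the 42, 24 were counted only through wild type, so these could not have been counted as higher. Each library comes from bulk cells, so less small RNA in every cell and small RNA in fewer cells cannot be told apart.

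The scale bears on these counts. Size factors, taken as the median of ratios over genes above 0 in every library, shift this comparison by 1.91 on the log2 scale relative to the deposited scale. With them 27 of 41 genes counted were lower and 7 higher, at a median of -1.85, against 31.9% lower and 34.5% higher of nuclear genes. The median of the group lay 1.41 below the nuclear median on the deposited scale and 1.83 below it with size factors.

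The 6 genes with the lowest log2 differences belong to both subunits. Their order depends on the pseudocount: by plain ratio MRPL1, at 145-fold lower on 2 reads, comes first, and MRPL35 also passes MRPL22. MRPL22, for a protein that lines the peptide exit tunnel, had a value of 3.18 in DCR1 AGO1 and 209 in wild type, which is 65.8-fold lower (interval 35.1 to 139). MRPL9, for a conserved protein of the large subunit core, had 2.22 in DCR1 AGO1 and 133 in wild type, 59.8-fold lower (28.2 to 152). MRPL3, for a large subunit protein that bacterial ribosomes lack, had 2.22 in DCR1 AGO1 and 123 in wild type, 55.3-fold lower (26.1 to 141). These 3 genes had 7 to 10 reads in DCR1 AGO1, which is why their intervals are wide.

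MRPL15, another protein without a bacterial counterpart, had 1.27 in DCR1 AGO1 and 108 in wild type, 85-fold lower (32.3 to 318). MRPL1, for the protein of the mobile stalk beside the exit site, had 0.635 in DCR1 AGO1, which is 2 reads, and 92 in wild type. MRPL35, a large subunit protein without a bacterial counterpart, likewise had 0.635 in DCR1 AGO1 and 55 in wild type. In the small subunit, MRPS35, a mitochondria-specific protein, had 4.45 in DCR1 AGO1 and 173 in wild type, 38.9-fold lower (22.6 to 72.7). Each of these genes was above the group's median in wild type and had 2 to 14 reads in DCR1 AGO1. Ranking by a difference with a pseudocount favours genes high in wild type, so that level follows in part from the choice.

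MRPL25 and MRPL33, both of the large subunit, had 0 reads in DCR1 AGO1. Against the value of 3 reads, MRPL25, at 10 in wild type, was at least 10.5-fold lower, and MRPL33, at 5 in wild type, at least 5.25-fold lower. Those bounds leave out counting error in wild type. No other gene of the 42 was without reads in any library.

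MRPL51 and MRPL38 ran the other way. MRPL51, for a large subunit protein without a bacterial counterpart, overlaps a reading frame on the opposite strand. It had 80.0 in DCR1 AGO1 and 22 in wild type, 3.64-fold higher (2.35 to 5.91). MRPL38, for a conserved protein at the interface between the subunits, had 17.8 in DCR1 AGO1 and 7 in wild type, 2.54-fold higher (1.16 to 6.61). MRPL38 passed the threshold narrowly, at a log2 difference of 1.04, while MRPL8, for a conserved protein near the tunnel exit, stopped just under it at 0.99, with 47.0 in DCR1 AGO1 and 22 in wild type. MRPL36, for a protein of the central protuberance, had 33.3 in DCR1 AGO1 and 19 in wild type. MRPL7, of the same protuberance, had 28.6 in DCR1 AGO1 and 29 in wild type, which is no detectable difference at this depth. On the lower side the genes nearest to the threshold without passing were MRPL19 at -0.91 and MRPL44 at -0.88. Large and small subunit genes behaved alike by count, with 25 of 34 MRPL genes and 7 of 8 MRPS genes lower and medians of -2.97 and -3.03.

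Without XRN1 the same comparison gave a similar split. In xrn1-delta DCR1 AGO1 over xrn1-delta all 42 genes were counted, and 34 were lower, 2 higher and 6 within 2-fold, against 57.9% lower and 15.4% higher of nuclear genes. The median was -2.50, from -5.09 to 1.94, against -1.45 over nuclear genes, and 9 of the 42 were counted only through xrn1-delta. With size factors, which shift this comparison by 1.61, 26 of 42 were lower and 5 higher, against 31.3% and 33.3% of nuclear genes. MRPL37, MRPL13 and MRPS28 were well covered in xrn1-delta DCR1 AGO1 and in xrn1-delta and had middling drops between these 2 libraries. MRPL37, without a bacterial counterpart, had 19.7 in xrn1-delta DCR1 AGO1 and 113 in xrn1-delta, and 4.13 in DCR1 AGO1 and 49 in wild type. MRPL13, also without one, had 11.6 in xrn1-delta DCR1 AGO1 and 105 in xrn1-delta, and 2.86 in DCR1 AGO1 and 34 in wild type. MRPS28, a conserved small subunit protein, had 17.0 in xrn1-delta DCR1 AGO1 and 132 in xrn1-delta, and 4.45 in DCR1 AGO1 and 143 in wild type. Each of the 3 genes was lower with DCR1 and AGO1 in both backgrounds. In DCR1 AGO1 MRPL37 had 13 reads, MRPL13 9 and MRPS28 14. Against wild type the drop of MRPS28 was not middling: its log2 difference of -4.26 lay beyond the group's lower quartile of -3.84. By subunit, 27 of 34 MRPL genes (median -2.50) and 7 of 8 MRPS genes (median -2.54) were lower.

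The deeper xrn1-delta DCR1 AGO1 library gave narrower intervals. MRPS35 had 1.75 in xrn1-delta DCR1 AGO1 and 164 in xrn1-delta, 93.7-fold lower (61.7 to 149). MRPL9 had 1.98 in xrn1-delta DCR1 AGO1 and 110 in xrn1-delta, 55.4-fold lower (37.1 to 86.0), and MRPL3 had 5.56 in xrn1-delta DCR1 AGO1 and 180 in xrn1-delta, 32.4-fold lower (25.3 to 41.9). Together with MRPL22, these genes were among the 6 with the lowest log2 differences (value plus 3.18) in both backgrounds. That rank depends on the pseudocount: by plain ratio MRPL39, at 34.1-fold lower on 7 reads in xrn1-delta DCR1 AGO1, is 1 of the genes that pass MRPL22. MRPL11, for the protein that anchors the stalk of the large subunit, had 2.52 in xrn1-delta DCR1 AGO1 and 81.6 in xrn1-delta, 32.4-fold lower (22.5 to 48.2). MRPL49, a conserved large subunit protein, had 3.66 in xrn1-delta DCR1 AGO1 and 81.9 in xrn1-delta, 22.4-fold lower (16.4 to 31.2). MRPL22 had 7.55 in xrn1-delta DCR1 AGO1 and 130 in xrn1-delta, 17.2-fold lower (13.8 to 21.7).

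MRPL38 had the highest difference of the 42, with 175 in xrn1-delta DCR1 AGO1 and 43.3 in xrn1-delta, 4.03-fold higher (3.38 to 4.85). MRPL51 had 128 in xrn1-delta DCR1 AGO1 and 44.6 in xrn1-delta, 2.86-fold higher (2.40 to 3.43). Within 2-fold, MRPL6, a conserved large subunit protein, had 113 in xrn1-delta DCR1 AGO1 and 67.1 in xrn1-delta. MRPL7 had 69.3 in xrn1-delta DCR1 AGO1 and 53.2 in xrn1-delta, and MRPL44, whose coding sequence has 2 exons, 42.2 in xrn1-delta DCR1 AGO1 and 30.1 in xrn1-delta. In these 3 genes the interval of the ratio lay above 1 without reaching 2. MRPS18, for a conserved protein of the small subunit platform, had 54.0 in xrn1-delta DCR1 AGO1 and 91.5 in xrn1-delta, 1.69-fold lower (1.47 to 1.95).

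**Figure D3:**
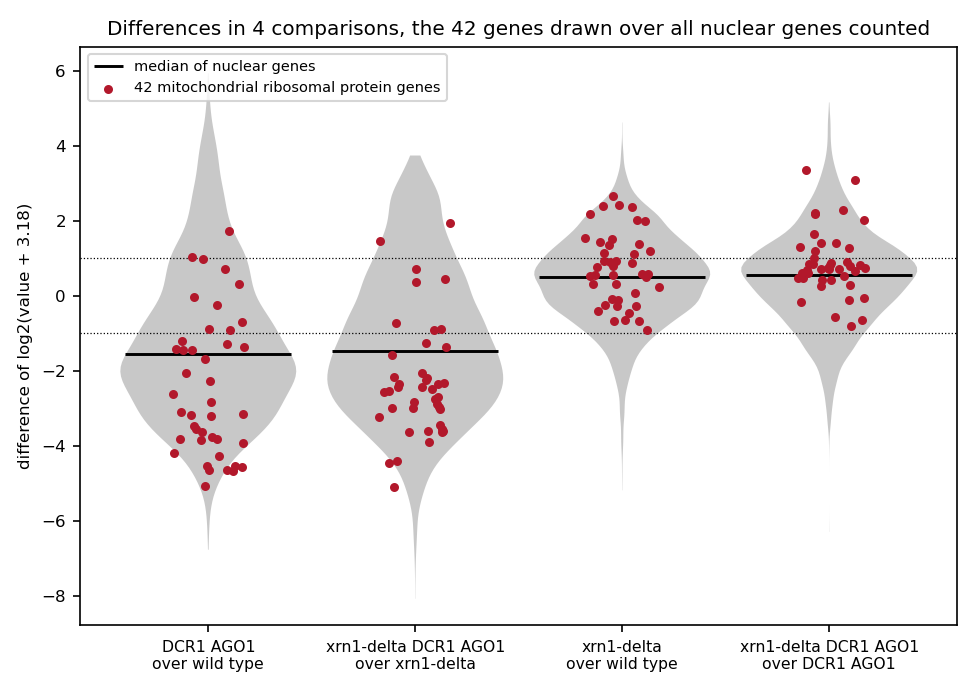
Log2 difference of value plus 3.18 (vertical axis) in the 4 comparisons, with the 42 mitochondrial ribosomal protein genes drawn over all nuclear genes counted. In the comparisons of DCR1 AGO1 the group's medians are -2.97 and -2.50, below the nuclear medians of -1.56 and -1.45, and in those of the XRN1 deletion they are 0.68 and 0.81, near the nuclear medians of 0.51 and 0.55.

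The 2 comparisons of DCR1 AGO1 share no library. Of the genes lower in DCR1 AGO1 over wild type, 30 of 32 (93.8%) were also lower in xrn1-delta DCR1 AGO1 over xrn1-delta, and these made up 88.2% of the 34 there. Over nuclear genes the shared calls were 79.5% and 83.1% of the 2 lists. The 2 genes called higher, MRPL38 and MRPL51, were the same in both. Across the 42 genes the log2 differences of the 2 comparisons correlated with Pearson's r of 0.81 and Spearman's rho of 0.81, against 0.76 and 0.75 over nuclear genes, a description in which genes are not independent replicates. On the deposited scale MRPL6, MRPL8 and MRPL36 pointed in opposite directions in the 2 backgrounds, with intervals of both ratios away from 1, while with size factors all 3 were higher in both.

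**Figure D4:**
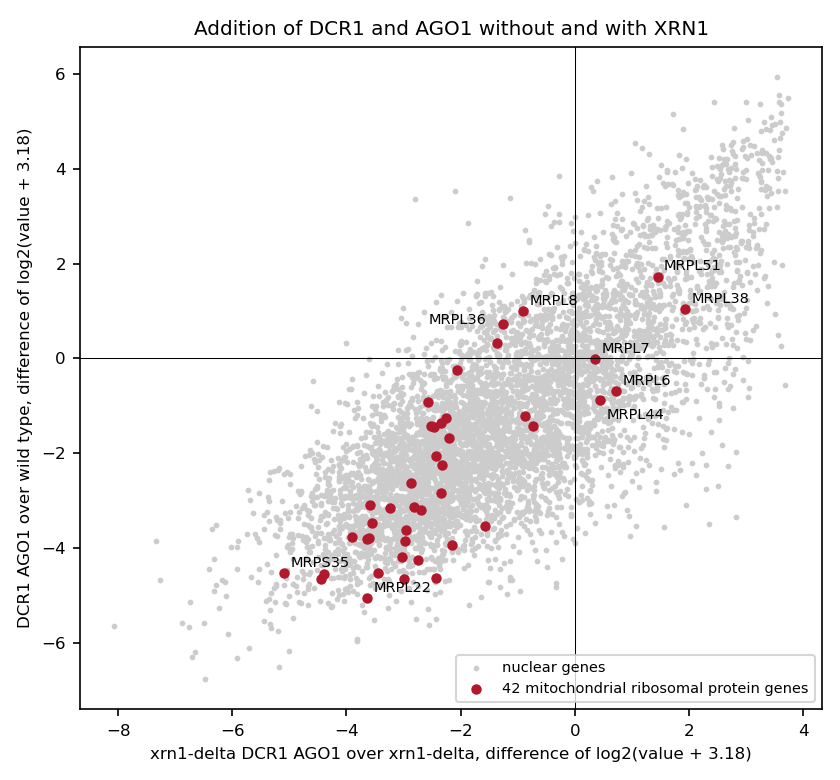
Log2 difference (value plus 3.18) in xrn1-delta DCR1 AGO1 over xrn1-delta (horizontal axis) and in DCR1 AGO1 over wild type (vertical axis), 1 point per gene, with the 42 genes over all nuclear genes. Most of the 42 lie in the lower left, and of the 42 MRPL38 and MRPL51 are the ones beyond 1 on both axes.

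An additive edgeR model was run as an alternative on the recovered reads. It has a term for DCR1 AGO1 and a term for the XRN1 deletion, treats the 2 backgrounds as replicates and has 1 residual degree of freedom. By its quasi-likelihood test with Benjamini-Hochberg adjustment over 5584 genes at 0.05, the DCR1 AGO1 term was lower for 20 of the 42 genes and higher for 3, against 18.4% and 20.3% of all genes tested. MRPS35 had a log2 fold change of -4.26 (edgeR adjusted p = 0.000108) and MRPL9 of -4.17 (edgeR adjusted p = 0.000119). MRPL38 had 3.37 (edgeR adjusted p = 0.00113), MRPL51 3.34 (edgeR adjusted p = 0.00123) and MRPL7 1.85 (edgeR adjusted p = 0.0436). The edgeR scaling (TMM) centres genes near 0, so its nuclear median is -0.09 and its median over the 42 genes is -2.21. MRPL7, within 2-fold on the deposited scale, is called higher on that scale.

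Without XRN1, some of the genes gave more small RNAs and none fewer by the 2-fold rule on the deposited scale, while with size factors 4 were lower. In xrn1-delta over wild type all 42 genes were counted, with 15 higher, 0 lower and 27 within 2-fold. Among nuclear genes 33.3% were higher and 9.89% lower, and the share of the 42 called higher lies near that background. The median was 0.68, from -0.92 to 2.67, against 0.51 for nuclear genes. By the ratio intervals, 25 genes were above 1, 6 below and 11 held 1. The same count was not made over nuclear genes, whose median was also above 0, so it does not set the group apart. In the edgeR model 0 of the 42 genes passed at an adjusted p of 0.05 for the XRN1 deletion, with TMM or with size factors, while 0.448% and 0.376% of all genes tested were called higher and lower with TMM. At an unadjusted p under 0.05 edgeR had 4 of the 42 higher and 0 lower with TMM, and 2 higher and 1 lower with size factors, where 743 and 716 of all 5584 genes were past it in either direction.

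The genes with the largest differences gave few reads in wild type. MRPL50, a large subunit protein, had 42.6 in xrn1-delta and 4 in wild type, 10.7-fold higher (4.06 to 39.7). MRPL19, of the stalk base, had 33.7 in xrn1-delta and 4 in wild type, 8.43-fold higher (3.19 to 31.5). MRPS8, a conserved protein of the small subunit, had 51.5 in xrn1-delta and 7 in wild type, 7.36-fold higher (3.49 to 18.6). MRPL36 had 114 in xrn1-delta and 19 in wild type, a log2 difference of 2.40. At the other end MRPL1 had 47.2 in xrn1-delta and 92 in wild type, and MRPL22 had 130 in xrn1-delta and 209 in wild type. MRPL11 had 81.6 in xrn1-delta and 131 in wild type, and MRPL32 had 90.5 in xrn1-delta and 143 in wild type. MRPL32 encodes a protein that the mitochondrial inner membrane protease m-AAA matures before it enters the ribosome. None of those 4 genes passed 2-fold lower.

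With DCR1 and AGO1 present, the XRN1 deletion gave 13 higher, 0 lower and 22 within 2-fold of 35 genes counted, as 7 of the 42 stayed below 3.18 in both libraries. The background was 33.2% higher and 11.5% lower. The median was 0.81, or 0.75 with all 42 included, against 0.55, and the differences ranged from -0.79 to 3.35. Of the 35, 17 were counted only through xrn1-delta DCR1 AGO1 and could not have been counted as lower. MRPL44 had 42.2 in xrn1-delta DCR1 AGO1 and 1.27 in DCR1 AGO1, which is 4 reads, 33.2-fold higher (12.9 to 122). MRPL38 had 175 in xrn1-delta DCR1 AGO1 and 17.8 in DCR1 AGO1, 9.81-fold higher (7.53 to 13.0). In these 2 genes the interval of the ratio lies above 7. MRPL17, without a bacterial counterpart, had 37.1 in xrn1-delta DCR1 AGO1 and 5.08 in DCR1 AGO1, 7.31-fold higher (4.45 to 12.9). MRPS18 had 54.0 in xrn1-delta DCR1 AGO1 and 9.21 in DCR1 AGO1, 5.87-fold higher (4.05 to 8.83), and MRPL6 had 113 in xrn1-delta DCR1 AGO1 and 22.2 in DCR1 AGO1. Of the 9 genes that reached 31.8 in either library, MRPL8 alone was lower, with 31.0 in xrn1-delta DCR1 AGO1 and 47.0 in DCR1 AGO1, within 2-fold. Counted by ratio intervals over all 42 genes, 30 were above 1, 3 below and 9 held 1. Nuclear genes, whose median was also above 0, were not counted this way, so these numbers do not set the group apart. By plain ratio MRPL11 was 2.65-fold lower (1.46 to 4.72) and MRPS35 2.54-fold lower (1.21 to 5.14). The pseudocount kept both of these low genes within 2-fold. The XRN1 split also shifted with scaling: with size factors 9 of 42 genes were higher and 4 lower in xrn1-delta over wild type, against 19.6% and 16.3% of nuclear genes, and 11 of 39 were higher and 3 lower in xrn1-delta DCR1 AGO1 over DCR1 AGO1, against 1057 and 1265 of 5286 nuclear genes.

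The 2 XRN1 comparisons share no library, and across the 42 genes their log2 differences had an r of 0.28 and a rho of 0.22, against 0.33 and 0.32 over nuclear genes. The difference between the XRN1 effect with DCR1 and AGO1 and the effect without ranged from -1.97 for MRPL36 to 2.21 for MRPL1, with a median of 0.18. It was 1 or more for 10 genes and -1 or less for 7, against 1286 and 1336 of 5770 nuclear genes around a median of 0.

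Coding length went with some of the values. Across the 42 genes log2 coding length correlated with the log2 difference of xrn1-delta over wild type with r of -0.57 and rho of -0.64, against -0.25 and -0.30 over nuclear genes. With DCR1 AGO1 over wild type r was -0.50 and rho -0.57, against -0.02 and -0.05. Both comparisons use the same wild type library. The pseudocount also limits how far a gene low in wild type can drop. MRPL33, of 261 bases, had 5 in wild type and 0 reads in DCR1 AGO1, yet its log2 difference was -1.36. How much of the length relation in DCR1 AGO1 over wild type rests on that limit was not tested. With xrn1-delta DCR1 AGO1 over xrn1-delta r was -0.30 and rho -0.35, against -0.04 and -0.06. With xrn1-delta DCR1 AGO1 over DCR1 AGO1 r was -0.08 and rho 0.01, against -0.27 and -0.29, so no such relation appears there. Value per kb correlated with log2 length in the 42 genes at rho -0.44 in xrn1-delta DCR1 AGO1, -0.06 in xrn1-delta, -0.54 in DCR1 AGO1 and 0.43 in wild type. Over nuclear genes the same rho was -0.28 in xrn1-delta DCR1 AGO1, -0.30 in xrn1-delta, -0.12 in DCR1 AGO1 and -0.05 in wild type. By length classes whose limits of 500 and 800 bases were chosen after the values were seen, 10 of 16 short genes, 5 of 12 intermediate and 0 of 14 long genes were higher in xrn1-delta over wild type, where 395 of 840, 439 of 848 and 991 of 4081 nuclear genes were. Per kb of coding length with nothing added, the medians in xrn1-delta of the short, intermediate and long classes were 101, 114 and 93.1. In wild type they were 21.9, 64.5 and 109, and in DCR1 AGO1 3.74, 5.31 and 3.23, with no steady fall with length there. The classes differed in wild type and much less in xrn1-delta.

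**Figure D5:**
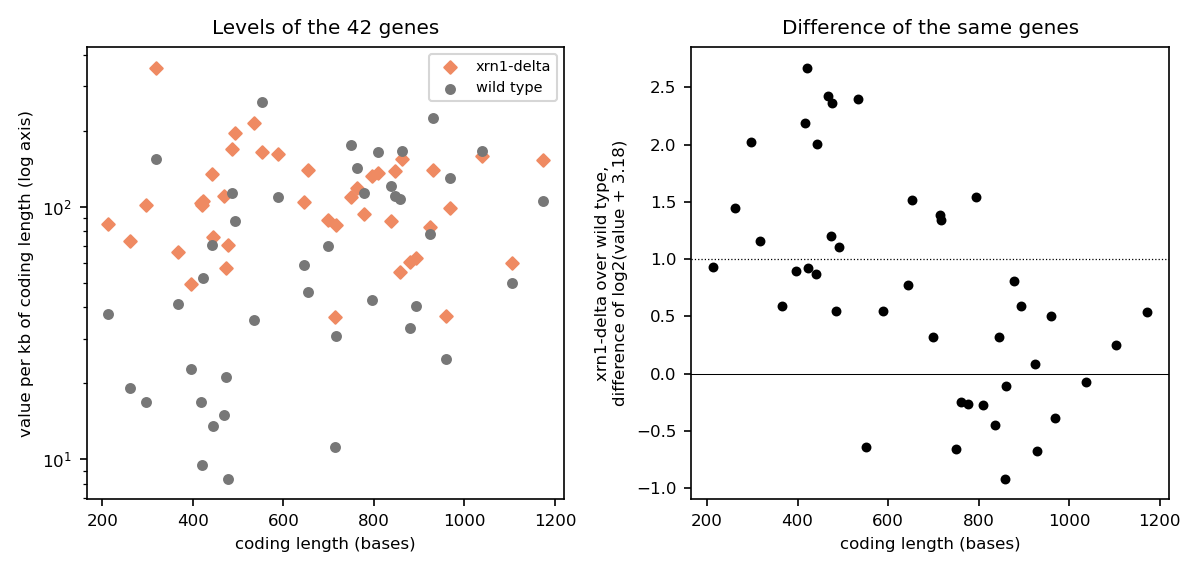
Coding length in bases (horizontal axes) of the 42 genes against the value per kb in xrn1-delta and in wild type (left, log axis) and against the log2 difference of xrn1-delta over wild type (right, value plus 3.18). On the left the wild type points lie lower among genes up to 500 bases, and on the right those genes have a median of 1.18 and genes over 800 bases one of 0.01.

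Between genes, levels can be compared only per kb of coding length. In xrn1-delta DCR1 AGO1 the highest were MRPL38 at 419, MRPL51 at 302, MRPL6 at 175, MRPL44 at 142 and MRPL36 at 86.4. In xrn1-delta they were MRPL37 at 355, MRPL36 at 213, MRPL23 at 196, MRPL49 at 169 and MRPL32 at 164. In DCR1 AGO1 they were MRPL51 at 189, MRPL8 at 65.6, MRPL36 at 62.4, MRPL38 at 42.6 and MRPL6 at 34.5, and in wild type MRPL32 at 259, MRPL22 at 225, MRPL11 at 175, MRPS35 at 167 and MRPS28 at 166. The order thus changed with DCR1 and AGO1: the 4 genes at the head in xrn1-delta DCR1 AGO1 were not in the first 5 of xrn1-delta or of wild type.

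Neighbouring genes were read from the R64 annotation. The sources used here do not say how strand was treated in counting, so small RNAs of a gene and of an antisense transcript cannot be told apart. MRPL51 overlaps YPR099C, an annotated reading frame on the opposite strand, by 323 bases, and MRPL19 overlaps YNL184C on its own strand by 113. Neither reading frame was found among the listed genes, so they have no values here. No member overlapped a gene of the table. The downstream neighbour was convergent for 24 genes and in the same direction for 18, with medians of -2.97 and -2.91 in DCR1 AGO1 over wild type and of -2.39 and -2.78 in xrn1-delta DCR1 AGO1 over xrn1-delta. Next to MRPL38 on the same strand, 372 bases upstream, NNK1 had 281 in xrn1-delta DCR1 AGO1, 80.6 in xrn1-delta, 1136 in DCR1 AGO1 and 71 in wild type, and was picked after its values were seen. The nearest gene on the opposite strand of MRPL38, KKQ8 at 237 bases, had 4.73 in xrn1-delta DCR1 AGO1, 76.7 in xrn1-delta, 3.81 in DCR1 AGO1 and 41 in wild type. That of MRPL51 in the table, TMH18 at 262 bases, had 2.44 in xrn1-delta DCR1 AGO1, 12.9 in xrn1-delta, 0.953 in DCR1 AGO1 and 10 in wild type. Both of these opposite-strand neighbours were lower with DCR1 and AGO1, where MRPL38 and MRPL51 were higher. Of nuclear genes counted, 60.1% and 57.9% were lower in the 2 comparisons, so a lower neighbour is common. TMH18 had 3 reads in DCR1 AGO1 and 10 in wild type. The part of these neighbours in the values of the 2 genes was not tested.

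Other genes of mitochondrial translation were taken as lists, whose counts stand against 60.1% of nuclear genes lower and 15.3% higher in DCR1 AGO1 over wild type, and 57.9% and 15.4% in xrn1-delta DCR1 AGO1 over xrn1-delta. Of 33 other nuclear genes of the mitochondrial ribosome, 26 of 32 counted were lower and 2 higher in DCR1 AGO1 over wild type (median -2.12), and 26 of 33 were lower and 1 higher in xrn1-delta DCR1 AGO1 over xrn1-delta (median -2.82). The list held the Puf3 motif in 32 of 33 genes. PET123, a small subunit protein, was the 1 higher there, with a log2 difference of 1.78, and -1.09 in DCR1 AGO1 over wild type. MRP1 and IMG1 were the 2 higher in DCR1 AGO1 over wild type, at 1.28 and 1.199. In xrn1-delta over wild type 19 of the 33 were higher and 0 lower (median 1.28), against 33.3% and 9.89% of nuclear genes.

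Of 10 translation factors, 7 were lower and 1 higher in DCR1 AGO1 over wild type and 7 lower and 0 higher in xrn1-delta DCR1 AGO1 over xrn1-delta, with medians of -3.57 and -2.88. TUF1, the mitochondrial elongation factor that delivers tRNAs, was at -3.81 and -3.88. Of 13 aminoacyl-tRNA synthetases, which charge the mitochondrial tRNAs, 9 and 8 were lower and 0 higher in the 2 comparisons (medians -1.71 and -1.87), and all 13 had the motif. The counts of lower factors and synthetases lie near the nuclear shares. Of 14 translational activators of mitochondrial messenger RNAs, 12 and 9 were lower and 1 higher in each. PET122, an activator of translation of the mitochondrial gene for a cytochrome oxidase subunit, was the one higher, at 5.42 and 2.45, and it had no motif match. Of 7 assembly factors found, 5 were lower and 1 higher in each comparison; MRM2, a methyltransferase of the mitochondrial ribosomal RNA, was higher at 2.37 and 1.10.

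The cytosolic ribosomal protein genes, which lack the motif in all but 3.79%, dropped as well: 125 of 129 counted and 128 of 131 counted were lower, with medians of -3.25 and -4.27. Near-identical copies of those genes make single values uncertain. VAR1, the 1 ribosomal protein gene in the mitochondrial genome, was lower at -5.89 and -6.37. Lower small RNA values with DCR1 and AGO1 were found in genes with and without the motif. Across nuclear genes outside the group, those with a match had medians of -1.80 and -1.83 in the 2 comparisons, and those without had -1.34 and -1.20. Within the 42 genes, those with 1 match and with 2 matches had medians of -2.97 and -3.03, then -2.50 and -2.50.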

How the data were processed

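Small RNAs of 10 to 40 nucleotides were purified from total RNA and sequenced, per the labels' protocols, in 1 library for each of 4 genotypes. The submitters' processing notes name cutadapt and Bowtie. The sources used here do not give versions, genome build, annotation, strand treatment, the handling of multiply mapping reads or the scaling rule. In the deposited table the wild type column is the count of reads, in whole numbers. The other 3 columns hold a deposited signal that equals whole reads times 1 factor per library: 100% of values were whole multiples of the smallest one, to a tolerance of 1e-06, and reads were recovered from it. The deposited scale was kept.

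Differences are of log2(value + 3.18), the pseudocount being the 10th percentile of values above 0, which understates changes of low genes. Folds of single genes are plain ratios with exact Clopper-Pearson intervals at 95%, for counting error only, since reads without molecular identifiers are not known to be independent. A gene was counted where 1 of 2 libraries reached 3.18, and called at a log2 difference of 1. Bounds use 3 reads. No test of 2 libraries against each other was run. The 42 genes, the lists, the motif and the comparisons were chosen with earlier results of these data known, and the motif and its window of 200 bases after the files had been opened. Genes given in full were the 6 or 4 with the largest differences in each direction per comparison among those reaching 31.8, genes called against the majority, the 5 highest per kb per library and those at 0 reads. Names and coordinates come from RefSeq (assembly R64), in which 5789 gene identifiers were found and 9 were not. edgeR 4.0.16 in R 4.3.3 was run on the recovered reads of all 4 libraries as an alternative. It was tested on simulated data for the DCR1 AGO1 effect with 200 of 5458 genes changed 8-fold: at a dispersion of 0.254, that of the real data, it recovered 107 and called 2 unchanged genes.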

Additional observations from a re-analysis of the deposited data

Results flagged for a closer look

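Some genes pointed in opposite directions in the 2 backgrounds, with both ratio intervals away from 1. This criterion was chosen after the values were seen, on the deposited scale, and the differences between backgrounds were not tested. For DCR1 AGO1 over wild type and xrn1-delta DCR1 AGO1 over xrn1-delta, MRPL6 had ratios of 0.585 and 1.69, MRPL8 2.14 and 0.51, and MRPL36 1.76 and 0.405. With size factors none of the 3 opposite directions remains: the log2 differences are 1.04 and 2.25 for MRPL6, 2.75 and 0.59 for MRPL8, and 2.44 and 0.29 for MRPL36. For the XRN1 deletion, in xrn1-delta over wild type and in xrn1-delta DCR1 AGO1 over DCR1 AGO1, MRPL1 had ratios of 0.514 and 9.72, MRPL8 2.76 and 0.66, MRPL22 0.621 and 2.38, and MRPS9, a conserved small subunit protein, 0.726 and 2.46. With size factors these 4 genes still point in opposite directions, at log2 differences of -1.31 and 1.35 for MRPL1, 0.87 and -1.30 for MRPL8, -1.11 and 0.36 for MRPL22, and -0.86 and 0.38 for MRPS9. The ratio intervals were not recomputed with size factors, so that part of the criterion was not checked on that scale. In DCR1 AGO1, MRPL1 rests on 2 reads, MRPS9 on 8 and MRPL22 on 10.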

How the results depend on the processing

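No paired analysis was possible because each genotype has 1 library and the labels number no replicates to pair. The additive edgeR model is the 1 blocked fit, with the XRN1 background as the block for DCR1 AGO1. No replicate could be left out. The comparisons are DCR1 AGO1 over wild type (A), xrn1-delta DCR1 AGO1 over xrn1-delta (B), xrn1-delta over wild type (C) and xrn1-delta DCR1 AGO1 over DCR1 AGO1 (D). A and B kept more genes lower than higher under every setting run. The causes of the shifts below were not tested. With a pseudocount of 0.318 the median was -4.08 in A, -3.25 in B and 1.33 in D. The median difference between the XRN1 effects was 0.74. D then had 24 of 35 higher (68.6%, against 41.3% of nuclear genes) and 2 lower (5.71%, against 13.4%). With a pseudocount of 31.8, A had 1 higher, 21 lower and a median of -0.995, and the median of B was -1.13. C had 4 higher, and D had 4 higher and a median of 0.17. Of nuclear genes 11.1% were then higher and 34.4% lower in A, and 17.0% and 11.7% higher in C and D. With the filter at 31.8, A had 1 of 26 higher (3.85%, against 19.2% of nuclear genes) and a median of -3.78. D then had 6 of 9 higher (66.7%, against 37.7% of nuclear genes) and a median of 2.19. At the usual settings the share in D was 37.1% against 33.2%. The 6 genes higher in D under that filter reached 31.8 only in xrn1-delta DCR1 AGO1. They passed it through the library where they are high, so the share of 66.7% is partly set by the filter. Divided by the sum of all listed genes, B had 4 higher and a median of -2.03, C 7 higher, 4 lower and 0.16. The difference of effects was 0.74. Of nuclear genes 22.0% were then higher in B, and 18.2% higher and 19.7% lower in C. Divided by the sum of nuclear genes, A had 1 higher, C 4 lower and 0.26, and the difference was 0.60. Of nuclear genes 12.4% were then higher in A and 17.7% lower in C. With size factors A had 7 higher and a median of -1.85, B 5 higher and -1.31, C 9 higher, 4 lower and 0.25, and D 3 lower and 0.50. Size factors also turned MRPL4 to 0.36 and MRPS18 to 0.18 in A, and MRPL36 to 0.29 and MRPS8 to 0.096 in B. At 4-fold, A and B had 0 higher, C 7 and D 6. Without MRPL51 and MRPL19, left out for their overlaps after the data were seen, A and B had 1 higher. The nuclear shares were 15.3% and 15.4%. No member overlapped a listed gene, so that planned setting left out 0 genes. edgeR with size factors in place of TMM called 3 genes higher and 19 lower for DCR1 AGO1, against 1190 and 926 of all 5584 tested. Depth limits the low side: 24 of the 42 genes lay below 3.18 in DCR1 AGO1 and 9 in xrn1-delta DCR1 AGO1.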
